A study of Mus musculus with 2 samples.

Results

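AP-1 and Egr immediate early factors were examined in total RNA from the mouse adrenal gland: the Fos family (Fos, Fosb, Fosl1, Fosl2), the Jun family (Jun, Junb, Jund) and 3 Egr genes (Egr1, Egr2, Egr3). The genes were taken by symbol, and all 10 were found among the 55536 genes of the tables. The glands came from male B6CASTF1/J mice of 2 months, an F1 hybrid strain, with no treatment named in the labels. The series holds 2 libraries of 1 group, replicate 1 and replicate 2, each from 300 ng of RNA, with 36182740 and 34149994 expected counts in genes. The sample descriptions number the animals differently, whereas the library descriptions and the donor identifier are the same for both libraries, so any spread given here may be partly technical. With 1 group, replicate 2 against replicate 1 compares a library with a library and carries no test.

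Immediate early genes are transcribed within minutes of a signal, without new protein synthesis, and most of their mRNAs and proteins are short-lived. Fos and Jun proteins pair through a leucine zipper into AP-1, which binds DNA at TGANTCA and related motifs; Jun proteins can also pair with each other, whereas Fos proteins need a Jun partner. Egr proteins are zinc finger factors that bind GC-rich motifs such as GCGNGGGCG. In the adrenal gland ACTH and angiotensin induce such genes in the steroid-making cortex, splanchnic nerve activity induces them in the chromaffin cells of the medulla, and the catecholamine genes Th and Pnmt are long-described targets.

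The gland's AP-1 transcripts were mostly those of Fosl2, Jun and Jund, and the classical stimulus-induced genes Fos and Fosb were low. Levels below are TPM, a transcript abundance scaled to a fixed total per library, which is corrected for length and can be compared between genes. Of the 10 genes, 7 reached 1 TPM in both libraries, where 54.2% of 22028 protein-coding genes did. Egr2, Egr3 and Fosl1 did not.

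**Figure D1:**
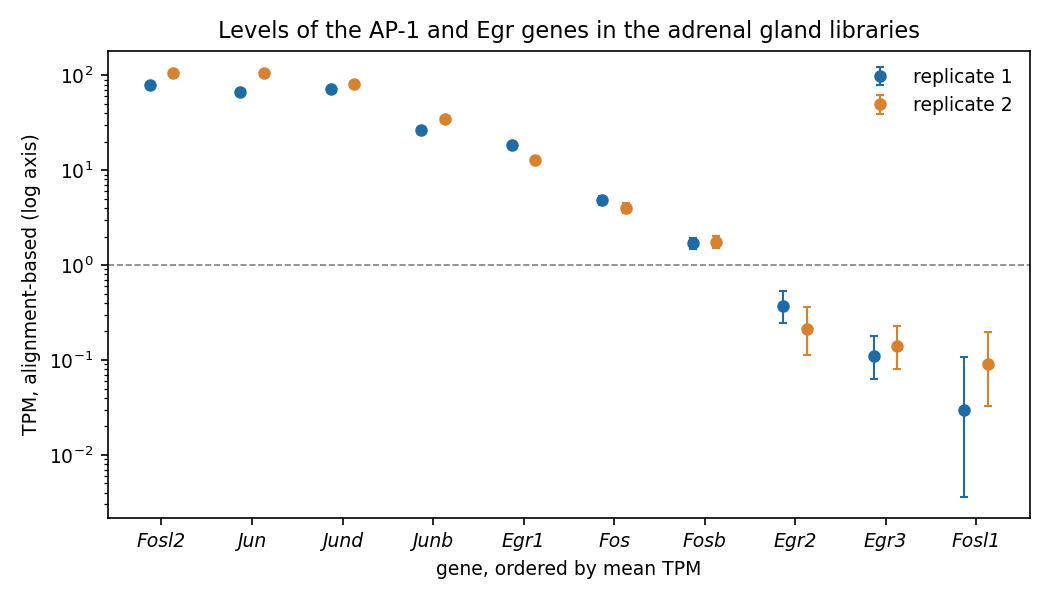
Level of each gene in TPM on a log axis, with a point for each library and bars for the 95% Poisson interval of its counts. Fosl2, Jun and Jund lie between 67.5 and 107 TPM, Egr1 at 18.5 and 12.8, and Fosl1, Egr2 and Egr3 lie under the dashed line at 1 TPM.

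Among the Jun family, Jun, the founding member and a strong activator, stood at 67.5 and 106 TPM in replicates 1 and 2, a mean of 86.5 ± 26.9 TPM (SD, n = 2). Jund, the member that many resting cells express steadily, had 71.2 and 82.0 TPM, a mean of 76.6 ± 7.60 TPM. Junb, which activates less strongly than Jun, had 26.3 and 34.6 TPM, a mean of 30.4 ± 5.90 TPM. Jun and Jund exchanged order between the libraries, and Junb was lower than both in each. Jun and Jund lay above 97.5% and 97.1% of protein-coding genes by mean TPM, and Junb above 91.2%. Within the family's TPM, Jun held 40.9% in replicate 1 and 47.5% in replicate 2, Jund 43.2% and 36.9%, and Junb 15.9% and 15.6%.

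Jun (ENSMUSG00000052684.4, chromosome 4, 95049034 to 95052222 in GRCm38, minus strand) and Jund (ENSMUSG00000071076.6, chromosome 8, 70698949 to 70700616, plus strand) each have 1 annotated transcript of 1 exon. Junb (ENSMUSG00000052837.6, chromosome 8, 84974484 to 84978718, minus strand) has a coding transcript of 1 exon, which took all of its alignment-based counts, and a noncoding transcript of 2 exons, which took none. The noncoding one overlaps Prdx2 on the opposite strand, which had 7282 and 7636 counts. Antisense genes overlap Jun and Jund. Junos, opposite Jun, had 43 and 49 counts, against 8109 and 11799 for Jun. Gm11175, opposite Jund, had 38 and 28 counts, against 4343 and 4654 for Jund. The library kit keeps strand, but the strand setting of the counting is not given in the sources used here, so reads of such pairs may not be fully told apart.

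The Fos family was almost entirely Fosl2. Fosl2 encodes a Fos protein that lacks the strong activation domain of Fos. It had 79.6 and 107 TPM, a mean of 93.4 ± 19.5 TPM, above 97.7% of protein-coding genes, and held 92.4% of the family's TPM in replicate 1 and 94.8% in replicate 2. Fos, the classical marker of recent stimulation, had 4.84 and 4.01 TPM, a mean of 4.425 ± 0.587 TPM, or 5.61% and 3.55% of the family. Fosb had 1.69 and 1.74 TPM, a mean of 1.715 ± 0.0354 TPM. Fosl1 was close to absent, with 2 counts in replicate 1 (95% Poisson interval 0.242 to 7.22) and 6 in replicate 2 (2.2 to 13.1), or 0.03 and 0.09 TPM. Fosl1 also overlaps Ccdc85b on the opposite strand, which had 545 and 486 counts.

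The ranges of Fosl2, Jun and Jund overlapped, so their means are not separated from the spread between the libraries. Within each library, however, Fosl2 was the highest of the 3, and only Jun and Jund exchanged order. Every other pair of neighbours in the order (Jund, Junb, Egr1, Fos, Fosb, Egr2, Egr3, Fosl1) had ranges that did not overlap, although the last 3 rest on 2 to 27 counts a library. The Jun family supplied 65.7% of the summed TPM of the 7 AP-1 genes in replicate 1 and 66.3% in replicate 2, a mean of 66.0 ± 0.420% (SD, n = 2). That sum was 251 TPM in the first library and 335 TPM in the second.

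Fosb (ENSMUSG00000003545.3, chromosome 7, 19302696 to 19310051, minus strand) is known for a shortened protein, often called delta FosB, made when 140 bases inside its last exon are spliced out. In the annotation these are bases 19305007 to 19305146 of chromosome 7, and the transcripts Fosb-206 and Fosb-207 lack them. They are shown because the share of this form is the main isoform question for Fosb. The first sequence is the full-length transcript, with the 140 bases in capitals. They start with GT and end with AG, the usual ends of an intron. The second sequence is the spliced junction, with the in-frame stop codon TGA that directly follows it in capitals. Fosb-201 codes for 338 residues, Fosb-206 for 237 and Fosb-207 for 201.
Fosb-201: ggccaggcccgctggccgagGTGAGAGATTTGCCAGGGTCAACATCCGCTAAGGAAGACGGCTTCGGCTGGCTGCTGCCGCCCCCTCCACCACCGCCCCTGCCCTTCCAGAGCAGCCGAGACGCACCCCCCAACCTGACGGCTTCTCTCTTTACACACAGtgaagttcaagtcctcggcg
Fosb-206: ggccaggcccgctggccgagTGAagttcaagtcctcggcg

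Some counts were assigned to the spliced form in these libraries, but it was not measured well. Reads that cross the junction were not examined, so its presence is not shown directly. Fosb-206 and Fosb-207 together had 24.6 and 15.3 expected counts of Fosb's 229 and 194, and 14.7% and 21.8% of its TPM in replicates 1 and 2. Of these counts Fosb-206 held 3.63 and 13.03, and Fosb-207, which codes for a shorter protein still, held 20.96 and 2.25. The read-based tables, which the authors derived from read files rather than alignments, gave them 5.19 and 19.0 estimated counts and 9.03% and 31.3% of TPM. All of these lay on Fosb-206. The joint share was higher in replicate 2 by both methods, but all 4 joint count values were under 25. By alignment the joint counts themselves were lower in replicate 2. The full-length Fosb-201 led by both methods, with 69.4% and 53.4% of Fosb TPM by alignment and 84.9% and 65.8% by reads. Fosb-205, another coding transcript, had 8.82% and 21.8% by alignment (20.2 and 48.4 counts) but 0 and 0.0215% by reads.

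The promoters of Fos, Fosb, Jun and Egr2 are shown because they hold different motif matches. Each sequence is the 100 bases before the RefSeq start site (GRCm38.p6), 5′ to 3′, with motif matches on either strand in capitals (TGACG reads CGTCA on the other strand). Egr2 has several start sites, and the one shown is that of its leading transcript, Egr2-201. The places are chr12:85473790-85473889 (plus strand) for Fos, chr7:19310046-19310145 (minus) for Fosb, chr4:95052223-95052322 (minus) for Jun and chr10:67537769-67537868 (plus) for Egr2.
Fos: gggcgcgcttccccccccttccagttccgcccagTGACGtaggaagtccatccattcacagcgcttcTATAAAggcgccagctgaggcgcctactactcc
Fosb: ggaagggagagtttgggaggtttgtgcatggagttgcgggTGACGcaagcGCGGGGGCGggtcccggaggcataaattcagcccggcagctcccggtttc
Jun: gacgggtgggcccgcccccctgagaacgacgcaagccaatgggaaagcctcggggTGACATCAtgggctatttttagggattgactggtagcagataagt
Egr2: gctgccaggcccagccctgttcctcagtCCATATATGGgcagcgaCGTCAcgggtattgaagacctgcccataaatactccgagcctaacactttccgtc

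Motifs were searched on both strands in the 250 bases before each start site, for the 7 members with a window in the promoter table: Fos, Fosb, Fosl2, Jun, Junb, Jund and Egr2. TGACG, the core that CREB family factors recognise, was found in Fos, Fosb, Junb and Egr2, and in 17.8% of all 32851 promoter windows of that length. The AP-1 type motif TGANNTCA was found in Jun and Jund and in 11.9% of windows, and can hold TGACG within it. The motif TGANTCA was found in 0 of the 7 and in 6.75% of windows. The Egr motif GCGNGGGCG was found in Fosb and Fosl2 and in 4.70% of windows. The CArG box, bound by serum response factor, was found in 4 of the 5 Egr2 windows and in 1.47% of all windows. Of these 4, 3 overlap and hold the same site, so the matches stand for 2 sites. TATAAA was found in Fos and in 12.4% of windows. The RefSeq starts of Fosl2 and Jund lie away from those of the annotation used for counting, and a match describes letters only.

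Part of the counts of Fosl2 and Fos was assigned to annotated forms other than their coding mRNA. Whether these forms are present as separate transcripts, rather than unspliced RNA, was not tested. Fosl2 (ENSMUSG00000029135.10, chromosome 5, 32135801 to 32157842, plus strand) has 1 coding transcript of 4 exons, Fosl2-201, and 2 transcripts that retain parts of its first intron. Fosl2-201 held 90.5% and 90.6% of Fosl2 TPM by alignment, but 71.2% and 72.8% by reads. The difference lay in Fosl2-203, which starts 304 bases before exon 2 of Fosl2-201 (32146521 to 32146824) and holds no other base of its own. It had 277 and 377 expected counts, 5.56% and 6.06% of TPM, against 1479 and 1757 estimated counts and 25.1% and 24.2% of TPM by reads. Fosl2-202, which runs 2839 bases from exon 1 into the intron, had 3.91% and 3.36% by alignment and 3.69% and 3.05% by reads. Transcripts with a retained intron thus held 9.44 ± 0.0366% of Fosl2 TPM by alignment and 28.0% by reads, where the median over 7156 genes with such a transcript was 6.92% and 7.61%.

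Fos (ENSMUSG00000021250.13, chromosome 12, 85473890 to 85477273, plus strand) has 1 coding transcript of 4 exons and 3 shorter noncoding ones that start in its first intron. The coding Fos-201 held 77.5% and 75.6% of Fos TPM by alignment, and 64.9% and 48.5% by reads. Fos-202, of 631 bases, held 0 and 5.49% by alignment, and 0.530% and 36.3% by reads, on 0.377 and 25.05 estimated counts. The read-based TPM of Fos was 8.74 in replicate 1 and 9.65 in replicate 2, whereas its read-based counts were 308 and 238. The higher TPM in replicate 2 lay on Fos-202, at 0.0463 and 3.50 TPM by reads. The coding Fos-201 was lower in replicate 2 by reads as well, at 5.67 and 4.68 TPM.

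Egr1, which binds as a single protein and is the Egr member tied to Pnmt, was the only Egr gene above 1 TPM. It had 18.5 and 12.8 TPM, a mean of 15.7 ± 4.04 TPM (SD, n = 2), above 81.7% of protein-coding genes, and held 97.5% and 97.3% of the TPM of the 3 Egr genes. Egr2, a factor of Schwann cells among others, had 27 and 13 counts, or 0.37 and 0.21 TPM. Egr3 had 16 counts in each library, or 0.11 and 0.14 TPM. Egr2 and Egr3 were therefore near the detection limit, and their transcript shares are not described.

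Egr1 (ENSMUSG00000038418.7, chromosome 18, 34859823 to 34864984, plus strand) has 2 coding transcripts. Egr1-202 lies wholly inside Egr1-201, which has 1384 further bases at its 5′ end and stretches of 36 and 28 bases besides. Egr1-202 held 87.3% and 85.9% of Egr1 TPM by alignment and 81.1% and 81.3% by reads, so the shorter form led with close values in both libraries and by both methods. Of the 5 members with several transcripts and 1 TPM or more (Fos, Fosb, Fosl2, Junb, Egr1), 5 were led by 1 and the same transcript in both tables, where the leading transcript differed in 23.9% of 11190 such genes. Egr2 (ENSMUSG00000037868.15) lies on chromosome 10, 67535475 to 67542188, Egr3 (ENSMUSG00000033730.4) on chromosome 14, 70077203 to 70082614, and Fosl1 (ENSMUSG00000024912.6) on chromosome 19, 5447547 to 5455946, all on the plus strand.

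**Figure D2:**
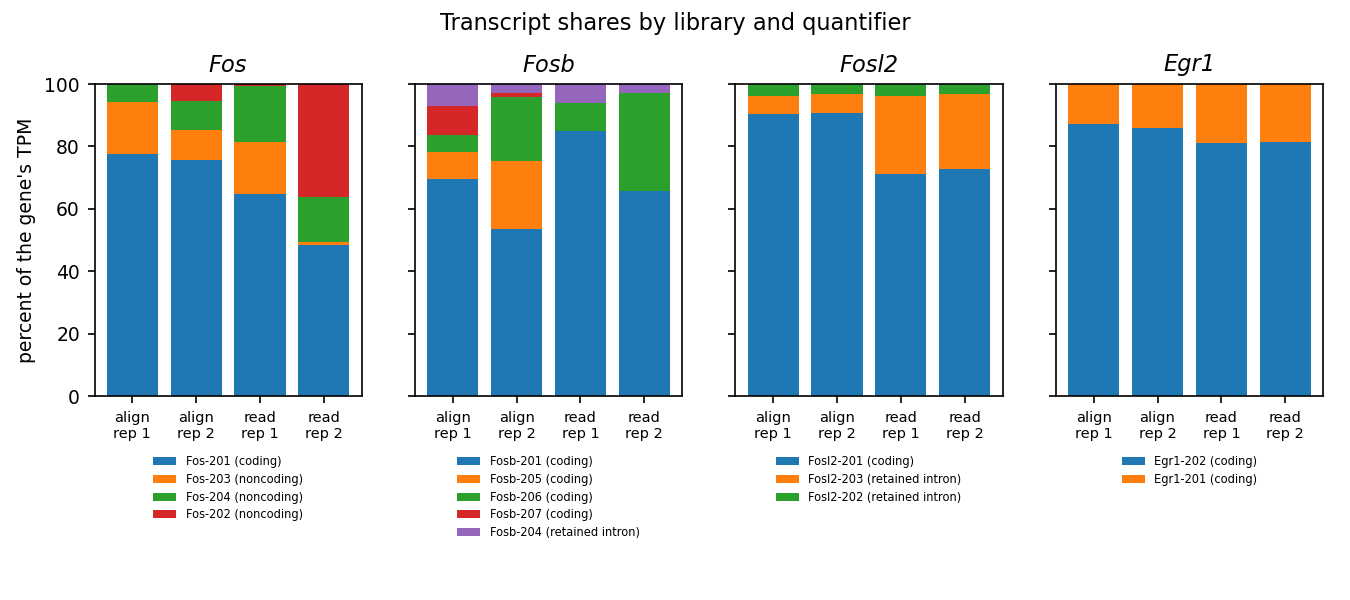
Percent of each gene's TPM on its transcripts, as stacked bars for the alignment-based (align) and read-based (read) tables of each replicate (rep). Fosl2-203 takes 5.56% and 6.06% by alignment and 25.1% and 24.2% by reads, and Egr1-202 leads in all 4 bars of Egr1.

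The members lay on both sides between the libraries: 3 Jun genes and Fosl2 were higher in replicate 2, and Fos and Egr1 were lower. Each ratio divides replicate 2 by replicate 1 on the log2 scale, using expected counts scaled between libraries by TMM, with an exact 95% interval that covers counting error only. Jun had 8109 and 11799 counts, a log2 ratio of 0.55 (0.51 to 0.59), or 1.46-fold higher in replicate 2. Fosl2 had 18722 and 23428 counts, a log2 ratio of 0.33 (0.30 to 0.36). Junb had 1745 and 2141 counts and a log2 ratio of 0.30 (0.21 to 0.39). Jund, with 4343 and 4654 counts, was nearly level at 0.11 (0.05 to 0.17).

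On the other side, Egr1 had 2246 and 1455 counts, a log2 ratio of -0.62 (-0.72 to -0.52), or 1.54-fold higher in replicate 1. Fos had 323 and 244 counts and a log2 ratio of -0.40 (-0.64 to -0.15). Fosb had 229 and 194 counts and a log2 ratio of -0.23, whose interval of -0.52 to 0.05 includes 0. Its TPM did not differ that way, at 1.69 and 1.74, and the 1090-base Fosb-206 held 3.63 and 13.03 of its counts. Egr2 had a log2 ratio of -1.02 (-2.12 to -0.04) on 27 and 13 counts, Egr3 of 0.01 (-1.09 to 1.10) and Fosl1 of 1.39 (-0.89 to 4.93).

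**Figure D3:**
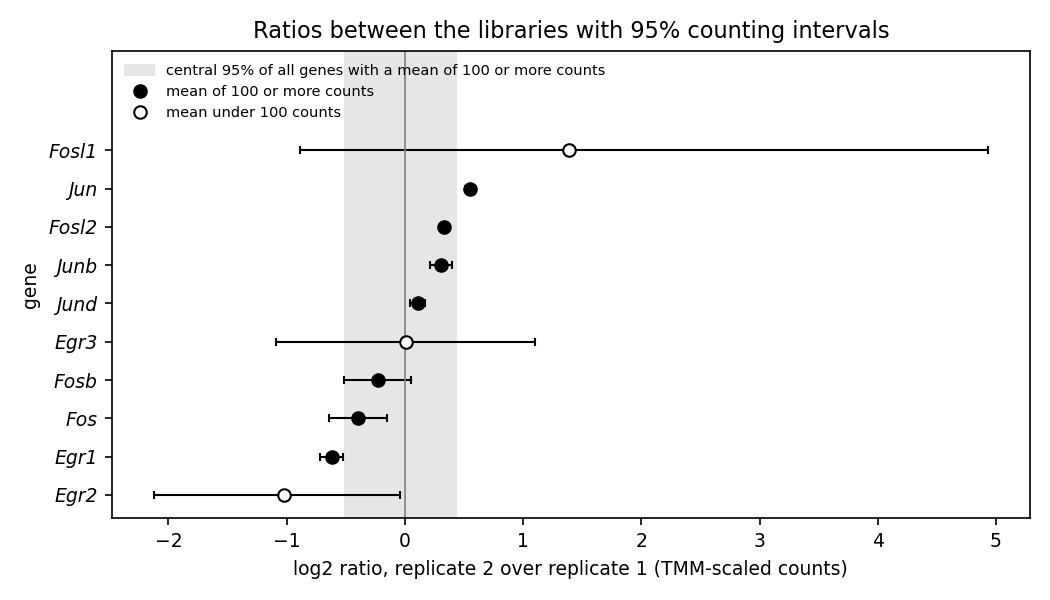
Log2 ratio of replicate 2 over replicate 1 for each gene, with the 95% counting interval as a bar and open points for genes averaging under 100 counts. Jun at 0.55 lies right of the shaded range of -0.51 to 0.44, the central 95% of all genes averaging at least 100 counts, and Egr1 at -0.62 lies left of it.

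Against all genes, Jun and Egr1 stood near the ends and the others within the usual spread. Of the 12430 genes averaging at least 100 counts, whose median log2 ratio was -0.01, 98.5% had a lower ratio than Jun, 95.2% than Fosl2, 94.3% than Junb and 76.2% than Jund. Conversely 1.23% had a lower ratio than Egr1, 4.465% than Fos and 12.4% than Fosb. The central 95% ran from -0.51 to 0.44 over all these genes. It ran from -0.40 to 0.33 for genes of 1000 to 3000 counts, the range of Egr1 and Junb. For genes of 3000 to 10000 counts, the range of Jun, it ran from -0.52 to 0.41. For genes of 10000 counts or more, the range of Fosl2, it ran from -0.62 to 0.5504. Jun averaged 9954 counts, at the border of these ranges, and its ratio of 0.5485 lies inside the last.

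Of the 7 members averaging at least 100 counts, 0 were over 2-fold apart, where 0.451% of the 12430 genes were. Over 1.5-fold, 0 were higher in replicate 2, where 1.24% of genes were, and 1, Egr1, was lower, where 1.42% were. Egr1 fell short of 1.5-fold with scaling by total count (-0.54) or by the ratio of TPM (-0.53), and Jun passed it with these (0.62 and 0.64). These scalings move the median of all genes to 0.07 and 0.08. Counting intervals lay above 0 for 4 members (18.5% of genes) and below 0 for 2 (20.3% of genes). Such intervals are narrow at high depth: all 5 members averaging at least 1000 counts lay beyond counting error, as did 51.6% of 5505 genes of that depth.

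Both quantifiers gave the members like levels once their overall offset was removed. The offset was the median of 14052 genes at 1 TPM or more in both libraries by either method, and above 0 by both. It was log2 0.86 in replicate 1 and 0.94 in replicate 2, read-based over alignment-based TPM. After centring on it, 0 of the 7 members at 1 TPM differed by over 2-fold, where 3.24% of those genes did. The centred log2 values ran from -0.28 for Junb to 0.32 for Fos in replicate 2. Read-based counts gave log2 ratios between the libraries of 0.51 for Jun, 0.31 for Fosl2, -0.61 for Egr1 and -0.38 for Fos.

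Other dimerisation partners of AP-1, and the lists below, are described by counts and medians only. Of the 18 partners, 12 reached 1 TPM in both libraries and 13 averaged at least 100 counts. Of those 13, 0 passed 1.5-fold either way, where 1.24% of all genes were higher and 1.42% lower, and their median log2 ratio was 0.11. The highest were Atf4, the stress-response factor, at 41.6 and 54.1 TPM (log2 ratio 0.29), Atf5 at 39.3 and 31.2 TPM (-0.43), Atf2, a partner of Jun, at 21.2 and 21.9 TPM (-0.06) and Atf7 at 16.9 and 18.9 TPM (0.08). Creb5 had a log2 ratio of 0.30.

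Of the partners of Egr proteins, Nab1 stood at a level near that of Egr1 and the others lower. Nab1, a corepressor of Egr factors, had 17.5 and 18.4 TPM and a log2 ratio of -0.08 (-0.17 to -0.00). Nab2, the second corepressor and itself an Egr target, had 7.69 and 8.61 TPM and a log2 ratio of 0.10 (-0.05 to 0.25), so it did not share the lower value of Egr1 in replicate 2. Wt1, a related zinc finger factor, had 1.1 and 1.19 TPM. Egr4 had 1 count and 0 counts.

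Of 45 other immediate early genes listed, 43 averaged at least 100 counts, of which 29 were higher and 14 lower in replicate 2. Their median log2 ratio was 0.12, where that of all 12430 genes averaging at least 100 counts was -0.01. Of the 43, 7 were over 1.5-fold higher (1.24% of all genes) and 1 lower (1.42%). Nr4a1, an orphan receptor that ACTH induces in the cortex, was the most abundant, with 164 and 316 TPM and a log2 ratio of 0.90 (0.87 to 0.93). The kinase gene Plk3, at 2.43 and 7.14 TPM, had the largest log2 ratio, 1.45 (1.22 to 1.68), and Trib1 the lowest, -0.67 (-0.80 to -0.54). Cebpb had 106 and 117 TPM (0.05), the dimerisation inhibitor Id2 90.9 and 75.5 TPM (-0.37) and the small GTPase Rhob 75.5 and 87.2 TPM (0.11).

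Genes that end the response lay on both sides. Of the 18 feedback genes averaging at least 100 counts, 1 was over 1.5-fold higher (1.24% of all genes) and 1 lower (1.42%), and the median log2 ratio was -0.06. Dusp8, a MAP kinase phosphatase, had 3.22 and 6.02 TPM (log2 ratio 0.85) and Dusp5, another such phosphatase, 4.43 and 6.97 TPM (0.56). Dusp10, which acts on JNK and p38, had 6.99 and 3.86 TPM (-0.95), and Dusp6 20.4 and 18.1 TPM (-0.46). The mRNA decay factors Zfp36l1 and Zfp36l2 were level, at 62.2 and 73.2 TPM (0.07) and 25.3 and 27.8 TPM (0.04), as were Spred1 at -0.05 and Nfkbia, the inhibitor of NF-kappaB, at 0.02.

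All 30 upstream factors and kinases reached 1 TPM. Over 1.5-fold, 0 were higher and 0 lower, where 1.24% and 1.42% of all genes were. Beyond counting error 6 were higher and 2 lower, where 18.5% and 20.3% of all genes were, and their median log2 ratio was -0.00. Prkaca, the catalytic subunit of protein kinase A, had 77.9 and 73.1 TPM (-0.19), Map2k2 53.7 and 59.4 TPM (0.04) and Mapkapk2 46.7 and 47.2 TPM (-0.07). The coactivator gene Ep300 was at 0.29, Mapk7 at 0.27 and Rps6ka5 at -0.22.

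Of 19 genes long described as AP-1 targets, 14 averaged at least 100 counts, with a median log2 ratio of -0.04. Vegfa, the endothelial growth factor, had 114 and 195 TPM (log2 ratio 0.70), and Vim, an intermediate filament of stromal cells, 78.0 and 52.7 TPM (-0.68). The others that lead by level were the metallothionein Mt1 at -0.07, Itgb1 at -0.05 and Ccnd1 at -0.02, and Hmox1 was at 0.22 and Timp1 at -0.14.

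**Figure D4:**
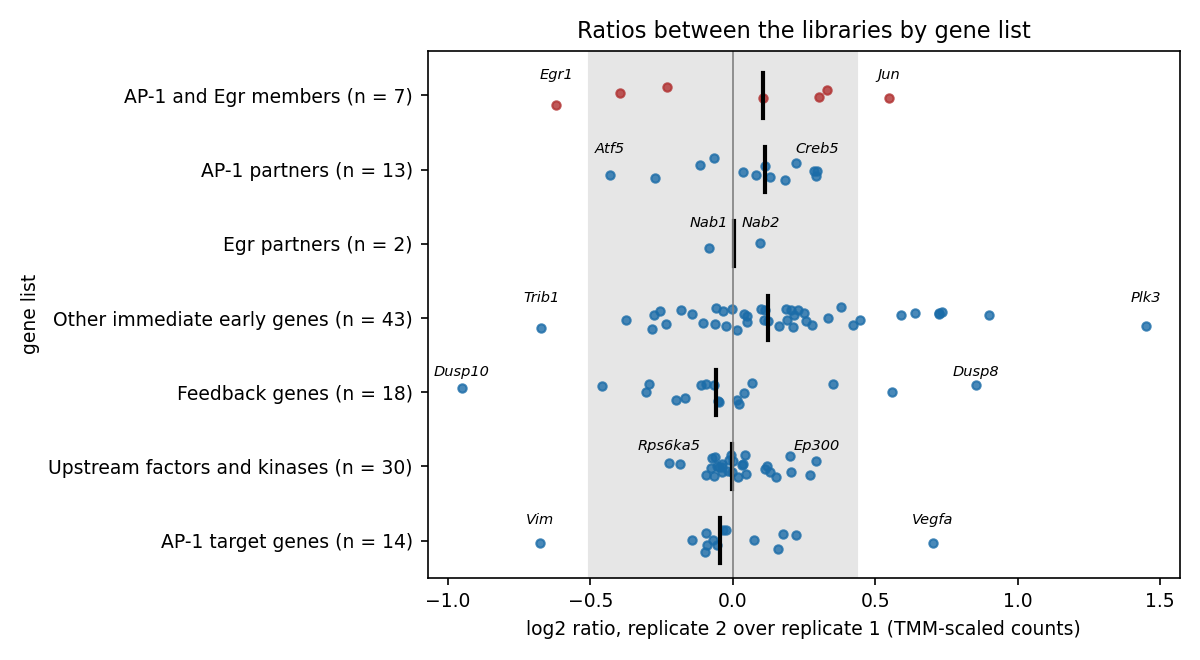
Log2 ratio of replicate 2 over replicate 1 for each gene averaging at least 100 counts, by list, with the median as a black line and the central 95% of all genes shaded. The members run from Egr1 at -0.62 to Jun at 0.55, and 7 other immediate early genes lie over 1.5-fold higher, up to Plk3 at 1.45.

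The libraries also differed in markers of cell types, and in bulk RNA fewer cells of a type and less RNA per cell cannot be told apart. Unless stated otherwise, directions are by TMM-scaled log2 ratio, whose median over all 12430 genes averaging at least 100 counts was -0.01. Lower in replicate 2 were 8 of 8 chromaffin markers (summed to 2137 and 1878 TPM), 6 of 7 brown adipocyte markers (1545 and 787), 8 of 8 white adipocyte markers (3938 and 3051), 5 of 5 red cell markers (1948 and 1174), 4 of 4 smooth muscle markers with enough counts (118 and 98.2) and 6 of 6 stromal markers (217 and 178). The labelled tissue's own markers were abundant in both libraries: besides the chromaffin markers, those of the steroidogenic cortex summed to 14864 and 16476 TPM with a median log2 ratio of 0.05. Endothelial markers were higher in 7 of 7 (218 and 243). Macrophage markers were lower in 5 of 6 by these TMM-scaled ratios but in 1 of 6 by TPM, with sums of 96.8 and 98.3, so they have no clear direction. By total count or TPM, 6 of 8 chromaffin markers were lower. The remaining lists were small, with 13.4 and 14.2 TPM for lymphocytes, 10.55 and 6.59 for Schwann cells, 2.29 and 7.97 for liver and 2.66 and 5.75 for kidney, of which Slc12a1 had 0 counts. No gene of the other marker lists had 0 counts in both libraries. Their part in the members' ratios was not tested.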

How the data were processed

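Total RNA-seq of adrenal glands was analysed from deposited tables for 2 libraries. The deposited file notes name mm10 (GRCm38) as build and GENCODE M21 as annotation. For each library the authors deposited gene and transcript tables of expected counts and TPM derived from transcriptome alignments, per the file headers. They also deposited a transcript table of estimated counts and TPM derived from the read files, summed here per gene. The names and versions of the tools are not given in the sources used here. The members and gene lists were chosen with earlier results of these data known.

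Counts were rounded and scaled by TMM in edgeR 4.0.16 over 55536 genes, leaving out spike-ins, which took 0.904% and 0.885% of counts. Ratios used counts plus 0.5 and were described for genes averaging at least 100 counts, across all genes. Intervals are exact Clopper-Pearson intervals at 95% and cover no more than counting error, because PCR copies cannot be told from separate molecules without identifiers. The ratio procedure was tested on simulated data. DESeq2 1.42.0 size factors, total count, TPM ratios, read-based counts, other count minimums and priors, and each library alone were alternatives. Of the pathway lists, the text names the 4 genes of highest mean TPM and the 2 each way with the largest ratio, and all Egr partners; some genes that this rule names are not reported here. With 2 libraries no gene can be named for likeness of pattern. Whether reads of the CAST alleles of this hybrid were assigned as well as the others was not tested. Promoters came from RefSeq (GRCm38.p6) and transcript sequences from GENCODE M21. The analysis used Python 3.11.15.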

Additional observations from a re-analysis of the deposited data

How the results depend on the processing

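With a minimum mean of 20 counts, 1 member was over 2-fold apart and 2 over 1.5-fold, since Egr2 entered; with no minimum these were 2 and 3, since Fosl1 entered as well. The log2 ratio of Fosb, -0.23 from counts, was 0.042 from the ratio of TPM. No other member with at least 100 counts on average changed sign under the alternatives run, which held read-based counts but not read-based TPM. By read-based TPM, Fos (8.74 and 9.65) and Fosb (2.83 and 3.38) were higher in replicate 2, against the direction of their counts. Their leading transcripts were lower there by the same measure, Fos-201 at 5.67 and 4.68 and Fosb-201 at 2.40 and 2.23. Without centring, 1 member, Fosl2, was over 2-fold higher by reads in both libraries, and Fos was so in replicate 2 (log2 1.27). The Jun family's share of AP-1 TPM was 62.4% by reads, and 43.1% when counts, which are not scaled for length, were used. The members' median log2 ratio, 0.11, was -0.06 with a minimum mean of 20 counts and 0.06 with none. The number of members at 1 TPM stayed at 7 by read-based TPM and in each library alone, and 5 members reached a threshold of 5 TPM. The number with the same leading transcript stayed at 5 in each library alone. No paired analysis was possible because there is 1 group. Depth limits Fosl1, Egr2 and Egr3 and the minor transcripts of Fos and Fosb.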

Other observations

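AU-rich elements mark many short-lived mRNAs for decay, among others by proteins of the Zfp36 family. They were counted in the annotated 3′ UTR of the coding transcript with the highest alignment-based TPM summed over both libraries, with no measure of decay. The background was 11556 genes at 1 TPM or more in both libraries, a level that Fosl1, Egr2 and Egr3 did not reach. The motif TATTTAT was present in 6 of the 10 members (Fos, Fosb, Fosl1, Fosl2, Jun and Jund), against 27.0% of those genes. Of the members at that level, only Junb and Egr1 lacked it. At least 2 copies were present in Fos, with 2, and Fosl2, with 3, against 8.82% of the background genes. The shorter ATTTA stood at 4.91 per kb in Fos, 4.12 in Junb and 3.24 in Jun, where the median background gene had 1.20. The other members ran from 0.466 in Fosb, under that median, to 2.65 in Egr3. These are descriptions of the annotation, and longer UTRs hold more matches: that of Fosl2 has 4653 bases and that of Fos 815.

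Besides Nr4a1 and Plk3, 5 other immediate early genes were over 1.5-fold higher in replicate 2, named here after their values were seen. Their log2 ratios were 0.73 for Sik1, 0.72 for Cebpd, 0.72 for Gadd45b, 0.64 for Nr4a2 and 0.59 for Errfi1.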
